A study of Mus musculus with 8 samples.

Results

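The Hox genes are the homeobox genes that lie in 4 clusters, Hoxa to Hoxd, and encode transcription factors that set position along the body axis. Members were taken as the RefSeq mRNA probes, leaving out control spots, whose gene name was Hox followed by a cluster letter from a to d and a number, which gave 39 genes on 44 probes of the 20030 genes with a RefSeq mRNA probe on the array. The RNA came from NIH3T3, an immortalised line of mouse embryonic fibroblasts. Every plate was held for 24 h in 0.5% newborn bovine serum. The first group (3 arrays) received 20 µM cordycepin for 90 min, with fresh serum for the last 30 min. The second group (3 arrays) received the vehicle, 0.1% DMSO, and serum for 30 min, and the third group (2 arrays) received the vehicle and no serum. Cordycepin is 3′-deoxyadenosine, an adenosine analogue that lacks the hydroxyl group needed to extend an RNA chain. Cordycepin was always followed by serum here, so its effect was measured on top of serum only.

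Within a Hox cluster all genes are transcribed in the same direction, and low position numbers lie at the downstream end and act towards the head, while high numbers act towards the tail. Cells derived from different body levels keep different sets of Hox genes active for many divisions, fibroblasts among them, and Polycomb and Trithorax proteins maintain the silent and active states. Retinoic acid is a known inducer of the genes with low numbers, and the Hox proteins bind DNA together with TALE homeodomain partners such as Pbx and Meis. The genes are short and closely packed, so the end of one transcription unit often lies a few kilobases before the start of the next, and non-coding RNAs are made from both strands between them.

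Signal is given throughout as log2 of the processed spot signal minus the array's own 75th percentile. A value of 0 is thus that percentile, and values can be compared between arrays for 1 probe, but not between probes. Probes entered the test if, in 1 group or more, the scanner software had marked them well above background on each array of the group. The 8 arrays shared 1 slide and 1 scan. Between 51.1% and 57.1% of probes were well above background per array, correlations within groups ran from 0.992 to 0.995, and no spot was saturated. The 12 fibroblast markers examined, among them collagen and vimentin genes, were well above background on all arrays. Of 22 markers of epithelial, endothelial, leukocyte, neural and muscle cells, 8 were below that limit on every array, 7 were above it on all arrays, and none was called in any comparison.

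Of the 39 Hox genes, 23 were tested, on 24 probes. Position numbers 4 to 9 held most of the detected genes: 13 of 19 genes were well above background on all 8 arrays, against 5 of 8 genes with numbers 1 to 3 and 0 of 12 genes with numbers 10 to 13. Hoxa was the most completely detected cluster, with 7 of its 11 genes above background on every array and 9 tested. In Hoxb the tested genes were 4 of 10, in Hoxc 5 of 9 and in Hoxd 5 of 9. A further 11 genes were above background on no array, among them Hoxb1, Hoxb2 and Hoxb4 in the middle and downstream part of Hoxb and the most posterior genes Hoxb13, Hoxc13 and Hoxd13. The remaining 5 untested genes passed on 1 or 2 arrays only. One of these, Hoxa13, read -2.41 on serum replicate 2 and -2.42 on the third cordycepin array but between -7.84 and -5.93 on the other arrays with its brighter probe.

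**Figure D1:**
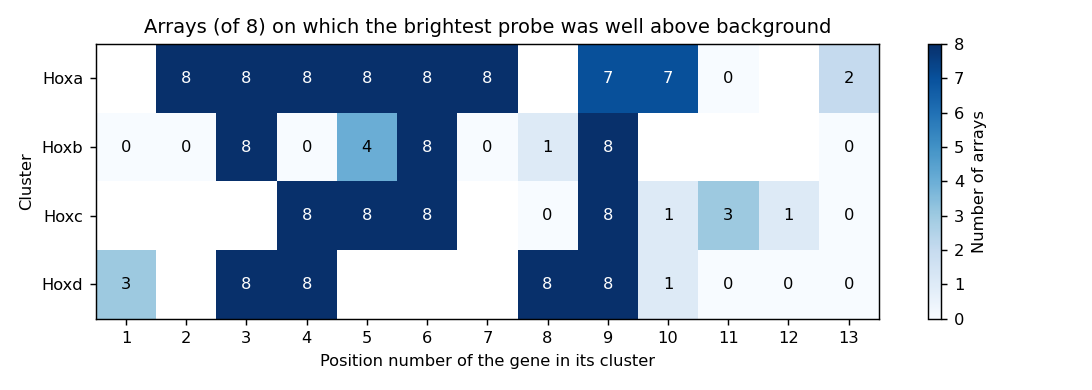
Number of the 8 arrays on which the brightest probe of each Hox gene was well above background, with clusters in rows and position numbers in columns (blank where no gene is plotted). Hoxa2 to Hoxa7 reached 8 of 8, while genes numbered 10 to 13 reached at most 7 and mostly 0 or 1.

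The first comparison asked what cordycepin did to these genes in serum-treated cells. Of the 23 Hox genes tested, 1 was called higher with cordycepin, Hoxd1, and 0 were called lower, where a call needed a limma adjusted p under 0.05 together with a change of 1 or more, up or down, on the log2 scale. Over all RefSeq mRNA genes tested, 3.65% were called higher and 2.51% lower, and among those dimmer than the median of these genes 7.17% and 3.04%. With no minimum fold 4 Hox genes were higher (background 6.61%) and 0 lower (7.77%). The median Hox change was 0.18 on the log2 scale, beside 0.07 over all RefSeq mRNA genes, with a range from -0.64 to 3.05. Changes in 18 of the 23 genes were under 0.5 in size, and for 17 the 95% interval lay wholly between -1 and 1. Cordycepin arrays lay above all serum arrays for 9 genes (22% of RefSeq mRNA genes) and below all of them for 2 (15%). In RNA from a whole plate, a change in some cells and a smaller change in all cells cannot be told apart.

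**Figure D2:**
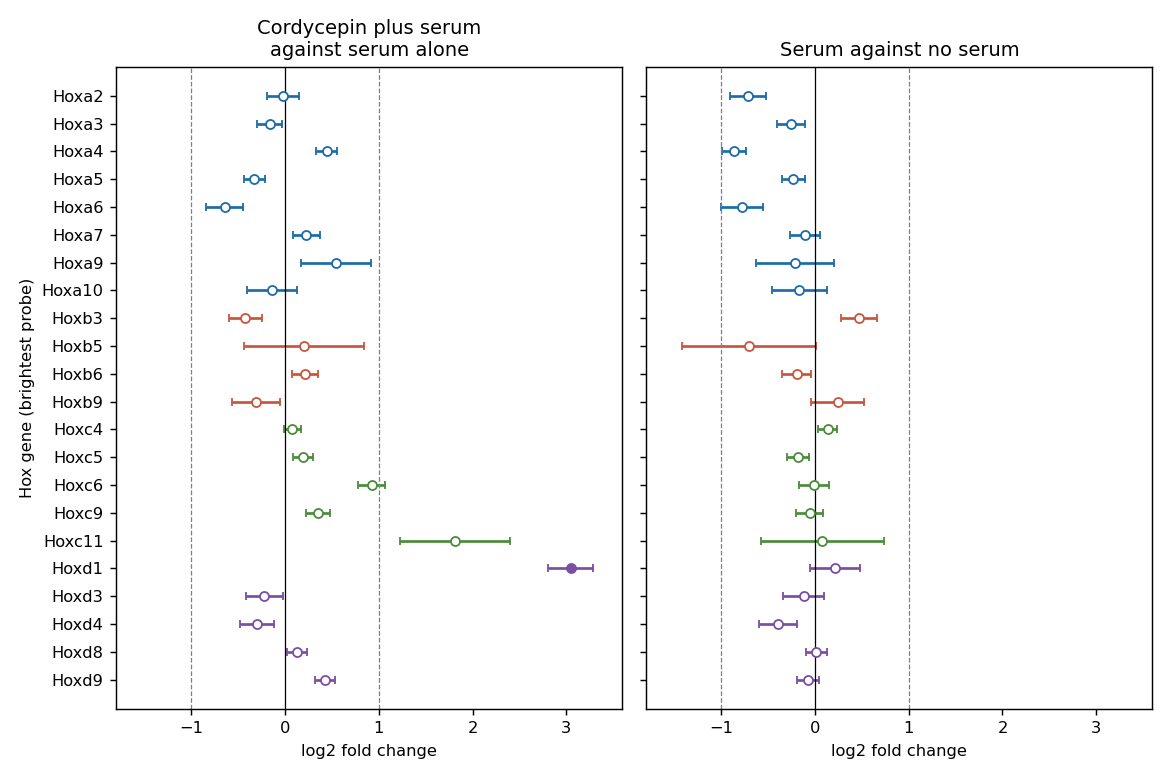
Log2 fold change with its standard error for 22 tested Hox genes, coloured by cluster, for cordycepin plus serum against serum alone (left) and serum against no serum (right). Filled points were called and dashed lines mark a log2 change of 1. Hoxd1 is the only filled point, at 3.05 on the left, and every Hoxa gene plotted lies below 0 on the right.

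Hoxd1, the most downstream gene of its cluster, is one of the group active in the most anterior part of the Hox domain. Its probe read -4.29, -4.29 and -4.90 on the cordycepin arrays, -7.85, -7.11 and -7.67 on the serum arrays, and -7.92 and -7.59 without serum. The 3 cordycepin arrays were well above background and none of the other 5 was, and the cordycepin signals lay above all others. The log2 fold change against serum was 3.05 (SE 0.24, 95% interval 2.49 to 3.61, limma adjusted p = 8.5e-05). Since the serum arrays give only an upper limit, the signal was at least 2.02-fold higher by the group means. Such a bound sets the mean of the bright group against, on each dim array, the larger of 2 values. These are its own signal and the lowest signal called well above background. Each bound given as "at least" carries no sampling error. With the normexp background correction, which adds an offset of 50 units to every signal, the change was 0.69 (adjusted p = 0.019) and the call ended.

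Hoxd3, the next Hox gene upstream of Hoxd1, lies 17.2 kb before it from probe to probe and helps to pattern the cervical vertebrae. It read -2.85, -2.36 and -2.32 with cordycepin and -2.36, -2.49 and -2.03 with serum alone. It was well above background on all 8 arrays, the groups overlapped, and its log2 fold change was -0.22 (SE 0.20, adjusted p = 0.48). Between them the array carries a probe for a non-coding transcript on the same strand, LOC102634401, which was singled out after its values were seen. This probe lies 5.94 kb after the Hoxd3 probe and 11.3 kb before the Hoxd1 probe, at chr2:74591731-74591790 on the plus strand of mm9, the build of the files.

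The sequences of both probes are shown because they carry the largest changes in the cluster, with a match to AATAAA, the hexamer of most polyadenylation signals, in capitals. For Hoxd1 (chr2:74603000-74603059, plus strand) the final 30 of 60 bases are given.
LOC102634401: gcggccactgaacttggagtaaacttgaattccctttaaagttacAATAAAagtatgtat
Hoxd1: ttataccttggcatcagttactcaaacttg

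LOC102634401 read -3.56, -4.10 and -3.83 with cordycepin, -7.77, -7.03 and -7.59 with serum, and -6.33 and -7.51 without serum. As with Hoxd1, the 3 cordycepin arrays alone were well above background. Both probes entered the test through those arrays only, so the filter favoured a rise, and their other values lay near background. The log2 fold change of LOC102634401 was 3.63 (SE 0.32, adjusted p = 1.4e-04), a rise of at least 3.20-fold. With the normexp correction it was 0.82 (adjusted p = 0.0047), under the minimum fold. On the opposite strand, 2.40 kb after the Hoxd3 probe, the antisense RNA Haglr was detected in every array and its change was 0.30 (SE 0.11, adjusted p = 0.095).

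**Figure D3:**
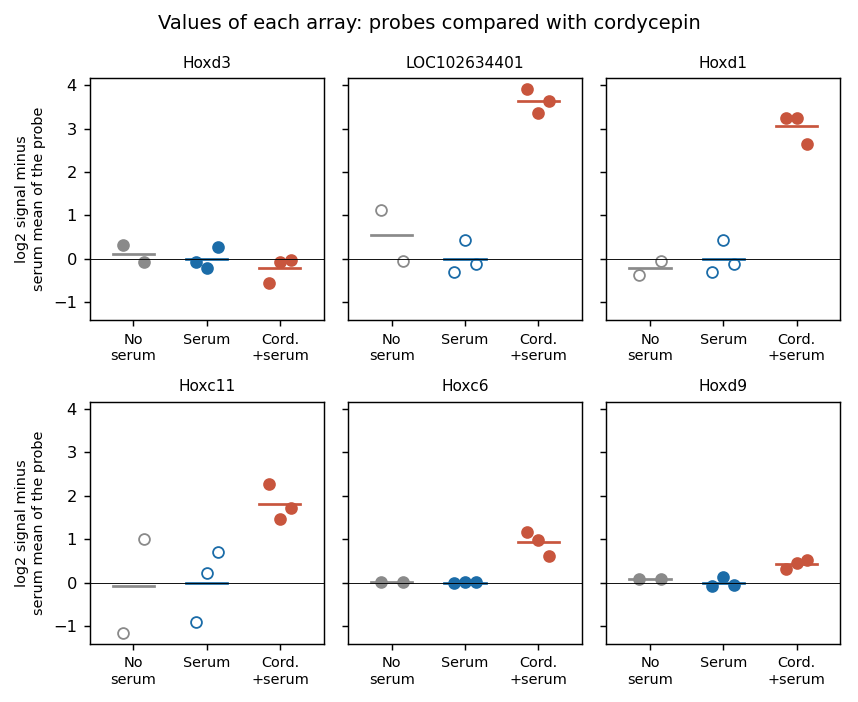
Values of each array (points) and group means (lines) for 6 probes, as log2 signal minus the serum mean of the same probe. Open points mark groups in which no array was well above background. LOC102634401 and Hoxd1 have means of 3.63 and 3.05 with cordycepin, Hoxc11 and Hoxc6 lie lower, and Hoxd3 is at -0.22.

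All 5 tested Hoxc genes had positive changes with cordycepin, from 0.08 to 1.81, and 4 of the 5 lay above the median of all probes, 0.10. The largest change, that of Hoxc11, entered the test through the cordycepin arrays only, so the filter favoured its positive sign. With no filter on dim probes 7 of 9 Hoxc changes were positive, and without no-serum replicate 1 the count was 5 of 6. Hoxc6, a gene of the thoracic region chosen for mention after its values were seen, read 2.68, 2.49 and 2.12 with cordycepin and 1.48, 1.51 and 1.52 with serum. The groups did not overlap and the no-serum arrays both read 1.52. Its log2 fold change was 0.92 (SE 0.15, adjusted p = 0.0028), which passed the adjusted p but not the minimum fold. Without the third cordycepin array it was 1.08 and passed both.

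The Hoxc6 probe is shown because it too holds the AATAAA hexamer, from base 44, but changed by less than 1 on the log2 scale (chr15:102842243-102842302, plus strand, final 30 bases).
Hoxc6: ttctcgaatatttAATAAAactgatattat
Over all Hox probes, 7 of 44 (15.9%) held AATAAA on the sense strand, and over all RefSeq mRNA probes of the same 60 bases 13.3% did and 4.26% on the opposite strand. The variant ATTAAA was present in 4 Hox probes (9.09%) and in 4.48% of all. Among the tested Hox probes with the first hexamer were those of Hoxc4 and Hoxc6, with changes of 0.08 and 0.92.

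Hoxc11, a posterior gene with a role in the hindlimb and also chosen after its values were seen, read -4.04, -4.84 and -4.59 with cordycepin, -7.22, -6.07 and -5.60 with serum, and -7.46 and -5.30 without serum. Only the cordycepin arrays were well above background, and all lay above the other 5 arrays. Its log2 fold change was 1.81 (SE 0.59, 95% interval 0.45 to 3.17). The bound from the group means was 2.03-fold, while the interval reached under the minimum fold. The limma adjusted p was 0.070. That p fell to 0.028 or 0.029 without either no-serum array, to 0.020 with the slide row as a block and to 0.0072 with centring on spike-in probes, and each of these settings called it. Over the 8 fits that left out 1 array the change ran from 1.35 to 2.16 and the adjusted p up to 0.20, and 2 of the 8 called it.

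Outside those genes the changes lay between -0.64 for Hoxa6, whose groups did not overlap, and 0.54 for Hoxa9 (95% interval -0.32 to 1.40). Hoxd9 read 0.17, 0.30 and 0.36 with cordycepin against -0.22, -0.02 and -0.20 with serum, and Hoxa4 read -3.10, -3.05 and -3.18 against -3.69, -3.51 and -3.45. Both sets of arrays were apart, and the changes of 0.43 (SE 0.11, adjusted p = 0.027) and 0.44 (SE 0.11, adjusted p = 0.025) passed the adjusted p without reaching the minimum fold. The most precisely measured genes of each cluster that were not called, besides those, were Hoxa5, Hoxb6, Hoxb3, Hoxc4, Hoxc5 and Hoxd8, and their changes lay between -0.42 for Hoxb3 (SE 0.18) and 0.21 for Hoxb6 (SE 0.14), with adjusted p from 0.076 to 0.60. Precision was lowest for Hoxb5, whose SE was 0.64 and whose 95% interval ran from -1.28 to 1.68. For the 18 genes detected on all arrays the largest SE was 0.25.

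Whether rises followed expressed neighbours was examined by ordering the genes along each cluster. A gene was called expressed where any probe of it was well above background on all 3 serum arrays. The next upstream Hox gene was expressed for 16 genes, at 4.57 to 21.7 kb from probe to probe, and not expressed for 19, at 4.64 to 79.9 kb. In the first set 13 genes were tested and 1, Hoxd1, was called higher with cordycepin on its brightest probe, with a median change of 0.08. In the second set 10 were tested, 0 were called higher and the median was 0.29. Hoxd1 in the first set and Hoxc11 in the second entered the test through the cordycepin arrays only. Silent genes that stayed near background were not tested, so these counts and medians lean towards rises. No test of the difference between the sets was made, and 4 genes had no Hox gene upstream.

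Of the 4 genes that were silent on all serum arrays and had an expressed upstream neighbour, Hoxb8, Hoxb2, Hoxc8 and Hoxd1, only Hoxd1 was above background on all cordycepin arrays. Among the 9 silent genes whose upstream neighbour was not expressed, it was Hoxc11 alone. Over all clusters, 2 of the 16 Hox genes silent on all serum arrays were detected on all cordycepin arrays, against 2.32% of the 6173 such RefSeq mRNA genes. Hoxb8 lay 8.83 kb after Hoxb9, Hoxb2 lay 8.01 kb after Hoxb3 and Hoxc8 lay 6.50 kb after Hoxc9, and none of the 3 was well above background on a serum or cordycepin array. None of them was tested. Hoxb2 read -7.10, -6.56 and -5.87 with cordycepin, above its serum arrays (-7.78, -7.22 and -7.74) and its no-serum arrays (-7.51 and -7.67).

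**Figure D4:**
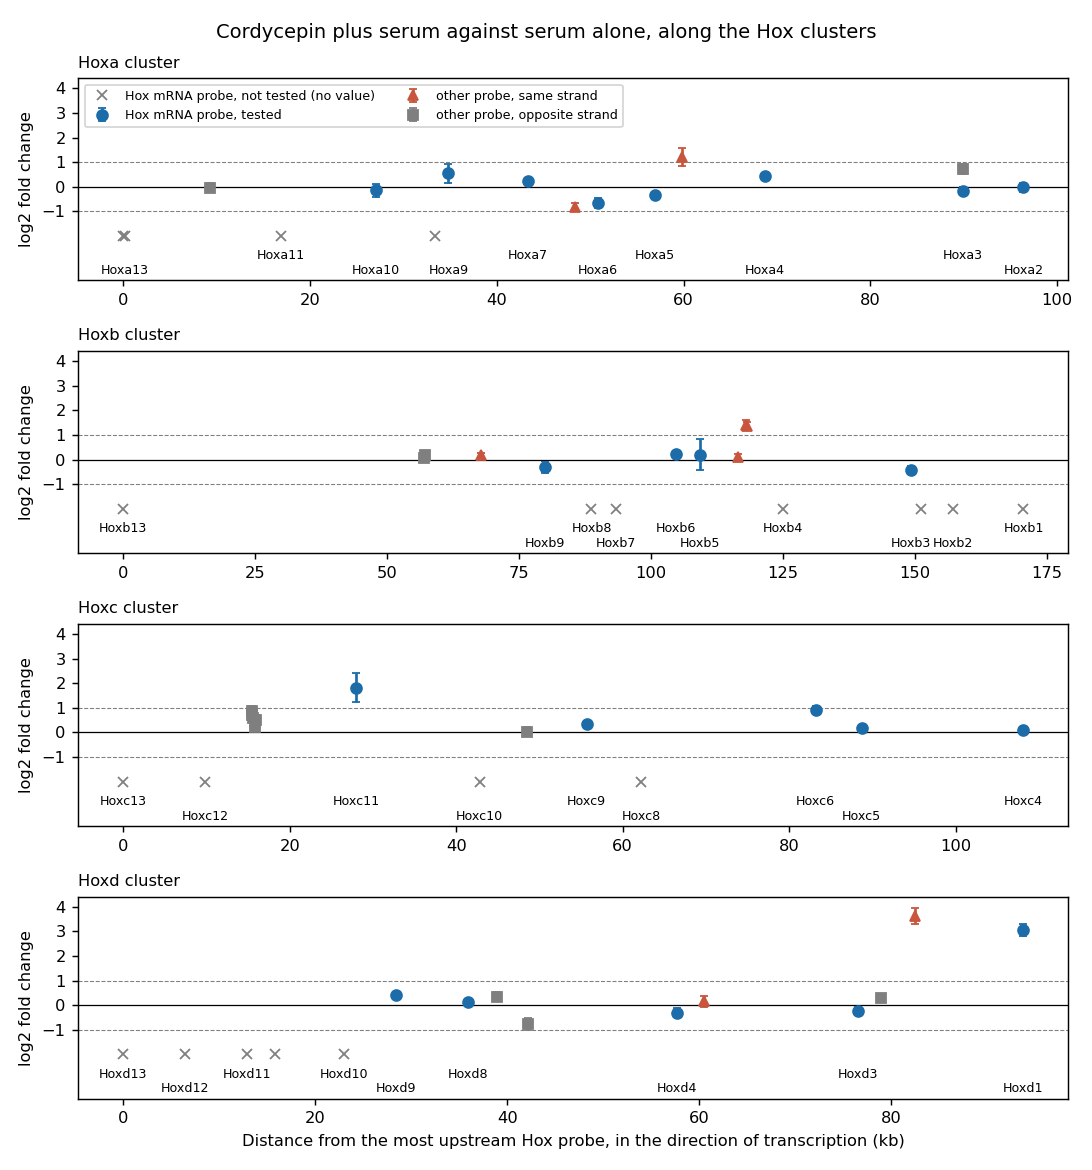
Log2 fold change with standard error of cordycepin plus serum against serum alone, plotted by distance in kb from the most upstream Hox probe in the direction of transcription, 1 panel per cluster. Circles are Hox mRNA probes, triangles other probes on the same strand, squares probes on the opposite strand, and crosses untested Hox probes with no value. The points above 3 are LOC102634401 and Hoxd1.

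Between the Hox genes lie 38 further probes, for non-coding and unnamed transcripts. On the strand of the Hox genes 20 were present and 9 tested, of which 3 were called higher with cordycepin and 0 lower, where 7.63% of all probes tested were higher and 2.87% lower. On the opposite strand 18 were present and 13 tested, and none was called in any comparison. A difference between the strands was not tested. The 3 called were LOC102634401 and a pair of probes for 1 long intergenic non-coding RNA (lincRNA) between Hoxb5 and Hoxb4, at chr11:96175777-96175836 and chr11:96175970-96176029, 8.65 and 8.84 kb after the Hoxb5 probe. They are named here after their values were seen. None of the 3 was well above background on any serum array. They entered the test only through groups brighter than serum, which favours a call of higher, and the pair measures 1 transcript.

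The first lincRNA probe read -4.55, -4.51 and -4.93 with cordycepin, -5.71, -6.41 and -6.09 with serum, and -4.37 and -4.66 without serum. The second read -4.43, -4.36 and -4.46 with cordycepin, -5.80, -5.91 and -5.59 with serum, and -4.00 and -4.60 without serum. In both, the serum arrays alone were not well above background, and they lay under all arrays of the other groups. The log2 fold changes with cordycepin were 1.41 (SE 0.20, adjusted p = 0.0017) and 1.35 (SE 0.17, adjusted p = 7.9e-04), at least 1.69-fold and 2.05-fold. With serum against no serum they were -1.56 (SE 0.23, adjusted p = 0.013) and -1.47 (SE 0.19, adjusted p = 0.0077), and none of these calls was made with the normexp correction or with centring on spike-in probes. The changes with normexp were 0.43 and 0.49 with cordycepin and -0.16 and -0.24 with serum. With spike-in centring they were 1.39 and 1.33 (adjusted p = 0.077 and 0.10) and -1.92 and -1.84 (adjusted p = 0.067 and 0.10). The serum call of the first probe was also lost without either no-serum array (adjusted p = 0.079 and 0.070). Another transcript of that interval, measured by 1 tested probe 7.13 kb after that of Hoxb5, changed by 0.12 with cordycepin (SE 0.12, adjusted p = 0.53).

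The opposite-strand RNA of the Hoxc cluster, HOTAIR, which is known for its association with Polycomb, had 5 tested probes between Hoxc12 and Hoxc11. All 5 had positive changes with cordycepin, from 0.22 to 0.88, with adjusted p from 0.012 to 0.40, and none was called. Hoxaas2, whose probe overlaps that of Hoxa3 on the other strand, changed by 0.73 (SE 0.20, adjusted p = 0.040) while Hoxa3 changed by -0.16 (SE 0.13, adjusted p = 0.44).

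The second comparison asked how 30 min of serum changed the same genes. None of the 23 Hox genes was called in either direction, where 0.872% of RefSeq mRNA genes were called higher and 0.0447% lower. With no minimum fold 0 were higher (1.23% of RefSeq mRNA genes) and 1 was lower (0.127%), Hoxa4. The median Hox change was -0.17 beside -0.01 over RefSeq mRNA genes. Serum arrays lay below both no-serum arrays for 8 genes (9.91%) and above both for 2 (10.4%).

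In the Hoxa cluster all 9 tested genes had negative changes with serum, from -0.11 to -0.86, and 6 of the 8 genes whose serum arrays lay below were from this cluster. The count was 7 of 9 without serum replicate 2, without no-serum replicate 2, and with the normexp correction. In Hoxb the signs were 2 up and 2 down, and in Hoxc and Hoxd 2 up and 3 down each. Hoxa4, a gene of the cervical region, read -3.69, -3.51 and -3.45 with serum and -2.62 and -2.75 without, with no overlap. Its log2 fold change was -0.86 (SE 0.12, 95% interval -1.15 to -0.58, adjusted p = 0.013), and the cordycepin arrays lay between those groups.

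Hoxa2, which specifies the skeleton of the second pharyngeal arch, read -0.69, -1.06 and -0.52 with serum against 0.07 and -0.15 without, a change of -0.71 (SE 0.19, adjusted p = 0.14). Hoxa6 read -3.41, -2.60 and -2.85 against -2.22 and -2.14, a change of -0.78 (SE 0.22, adjusted p = 0.17). For neither did the groups overlap, and neither passed the adjusted p. The largest positive change was that of Hoxb3, at 0.47 (SE 0.20, adjusted p = 0.46), also without overlap.

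Among the other probes on the Hox strand, 4 of 9 were called lower with serum, where 0.878% of all probes tested were. None was called higher (0.849%). The 4 were the lincRNA pair above, which measures 1 transcript, and a pair of transcripts in the Hoxa cluster, named after their values were seen. The lincRNA pair and the second Hoxa transcript were well above background on no serum array. They entered the test only through the groups where they were brighter, which favours a call of lower. The first Hoxa transcript is given by its accession, AK053996, since the array names it after an antisense RNA while its probe lies on the strand of the Hox genes. AK053996, between Hoxa7 and Hoxa6, read -0.79, -0.81 and -0.44 with serum and 0.38 and 0.37 without, where it fell by 1.05 on the log2 scale (SE 0.18, adjusted p = 0.026). With cordycepin it read lower again, at -1.26, -1.78 and -1.51, so that the 3 groups were apart, and the change of -0.84 (SE 0.16, adjusted p = 0.0078) did not reach the minimum fold. Its call with serum was lost without any 1 of both no-serum arrays, serum replicates 1 and 2 and cordycepin replicate 3, with changes from -1.06 to -0.99 and adjusted p from 0.053 to 0.16, and also with the normexp correction, with spike-in centring and with no filter on dim probes.

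The transcript ENSMUST00000142764, between Hoxa5 and Hoxa4, read -5.60, -6.82 and -5.60 with serum, -3.21 and -3.49 without serum and -4.60, -5.36 and -4.45 with cordycepin. Serum arrays were not well above background and lay under all others. Against no serum the log2 fold change was -2.66 (SE 0.41, adjusted p = 0.017), at least 4.10-fold lower, and with cordycepin against serum 1.20 (SE 0.37, adjusted p = 0.055). The serum call was lost without either no-serum array (adjusted p = 0.094 and 0.10) and with the normexp correction, where the change was -0.63 (adjusted p = 0.15).

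**Figure D5:**
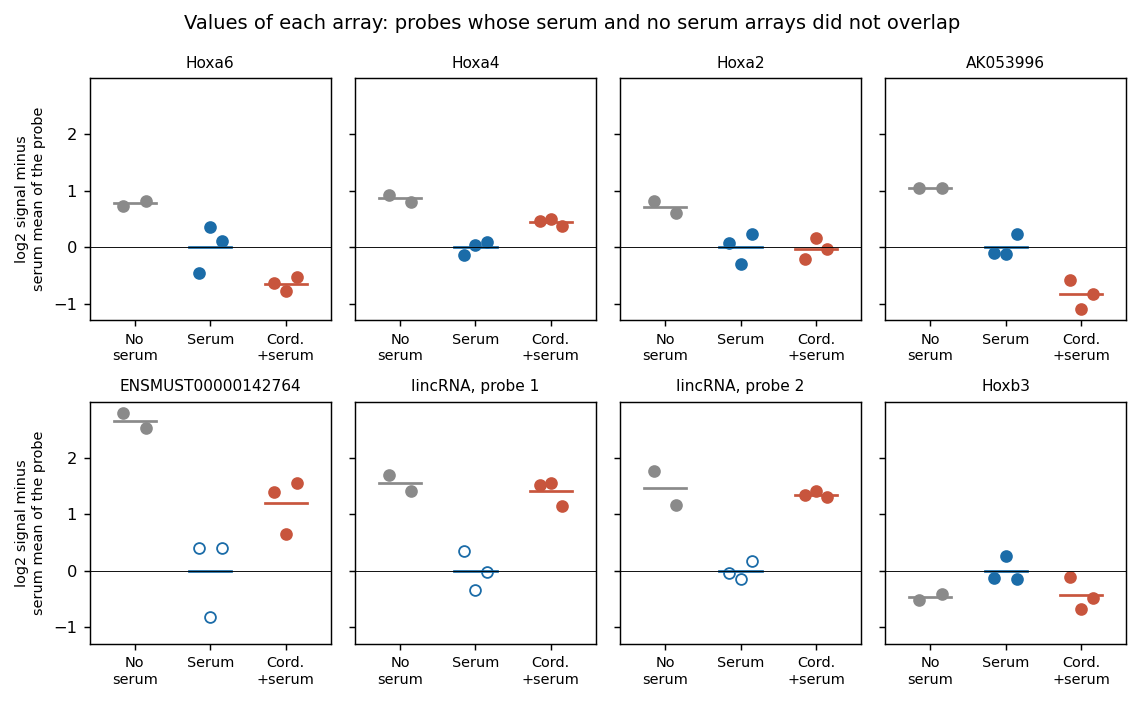
Values of each array (points) and group means (lines) for 8 probes whose serum and no-serum arrays did not overlap, as log2 signal minus the serum mean of the same probe, with open points for groups in which no array was well above background. The lincRNA pair and ENSMUST00000142764 are lowest with serum alone, Hoxa6 and AK053996 are lowest with cordycepin plus serum, and Hoxb3 is highest with serum.

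The third comparison set cells given cordycepin and serum against cells given neither, and shares its arrays with both others. Of the 23 Hox genes 1 was called higher (background 3.58%) and 1 lower (2%). Hoxd1 was higher by 3.26 on the log2 scale (SE 0.27, adjusted p = 1.7e-04), at least 2.41-fold. Hoxa6, a gene of the lower neck and upper trunk, read -3.59, -3.73 and -3.48 with cordycepin and serum, under every array of the other groups. Its log2 fold change against no serum was -1.42 (SE 0.22, 95% interval -1.94 to -0.91, adjusted p = 0.0038), it was called without any 1 array, and with the normexp correction it was -0.57 (adjusted p = 0.066). Against serum alone its change was -0.64 (SE 0.20, adjusted p = 0.059).

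With no minimum fold there were 2 higher (5.49%) and 3 lower (5.47%). Hoxc6 joined the first, at 0.91 (SE 0.16, adjusted p = 0.0070). Hoxa5, which acts in the developing lung and neck, and Hoxa2 joined the second, at -0.56 (SE 0.12, adjusted p = 0.018) and -0.74 (SE 0.19, adjusted p = 0.036). The cordycepin arrays lay above both no-serum arrays for 7 genes (25.4%) and below for 6 (16.1%), and the median Hox change was 0.01 beside 0.06 over RefSeq mRNA genes. At LOC102634401 the change was 3.09 (SE 0.36, adjusted p = 8.4e-04). Of the 9 other probes tested on the Hox strand, that one was the only one higher (6.48% of all probes tested), and 2 were lower (2.99%), AK053996 by -1.89 (SE 0.18, adjusted p = 3.2e-04) and ENSMUST00000142764 by -1.45 (SE 0.41, adjusted p = 0.049). The second of these was lost without any 1 of 7 arrays.

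Genes that work with or on the Hox clusters were examined as lists with cordycepin against serum, with the background of 3.65% higher and 2.51% lower. Of the 9 TALE cofactors of Hox proteins, all were tested, 0 were called and the median change was 0.00. Of 29 Polycomb genes tested, 0 were higher and 2 were lower, with a median of -0.07. Among them was Cbx8, a chromobox subunit of the Polycomb repressive complex that binds methylated histone H3. Cbx8 read -3.70, -3.34 and -2.75 with cordycepin and -0.89, -0.79 and -0.78 with serum, a change of -2.44 (SE 0.22, adjusted p = 1.5e-04). None of 17 Trithorax and H3K27 demethylase genes was called, with a median of -0.15.

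In the retinoic acid pathway 2 of 15 tested genes were higher and 0 lower, with a median of 0.05. Cyp26a1, the enzyme that degrades retinoic acid, read -3.45, -3.25 and -3.43 with cordycepin against -4.85, -5.24 and -5.05 with serum, a change of 1.67 (SE 0.20, adjusted p = 6.5e-04) that was 0.64 and not called with the normexp correction. Crabp2, which carries retinoic acid to its nuclear receptors, changed by 1.06 (SE 0.12, adjusted p = 4.3e-04), a call lost with centring on spike-in probes (a change of 1.04, adjusted p = 0.35). Of the genes that flank the clusters 21 were tested and 0 called, with a median of 0.08, and of the non-coding RNA genes of the clusters, taken by the gene names of the array, 6 were tested and 0 called with cordycepin, with a median of 0.26.

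Of the homeobox genes outside the clusters, 43 of the 95 on the array were above background on no array, and 47 were tested, with 2 higher and 3 lower and a median of -0.11. Lhx3, a regulator of pituitary and motor neuron fate, rose by 2.47 (SE 0.36, adjusted p = 0.0019), and Lhx9, which acts in the gonad, by 1.13 (SE 0.16, adjusted p = 0.0015). Nkx2-5, the cardiac homeobox gene, fell by 1.72 (SE 0.10, adjusted p = 2.3e-05) and Dlx2, which acts in the forebrain and face, fell by 1.55 (SE 0.15, adjusted p = 2.0e-04). Lhx9 was not called with the mean of its probes, at 0.43, nor without cordycepin replicate 2, at 1.00, nor with centring on spike-in probes, at 1.11 (adjusted p = 0.28).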

How the data were processed

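RNA of 8 NIH3T3 cultures, described in the design text as independent, was hybridised to 1-colour Agilent mouse arrays, with groups taken from the labels. The deposited files give the linear intensity of each spot. Feature Extraction 10.7.3.1 was the authors' scanner software (file headers), and its processed signal is background-subtracted, with probe positions in mm9. The study's methods name limma but no normalisation.

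The log2 processed signal was centred on each array's 75th percentile over non-control spots. Outlier spots were dropped, among them 3 of Hox probes, and spots of a probe averaged. Of 55681 probes, 30859 were well above background on every array of some group and were tested. Differences were fitted in R 4.3.3 (limma 3.58.1) over all 8 arrays, with a mean for each group and no covariate, and p-values, all two-sided, were adjusted by the Benjamini-Hochberg method over all probes tested. Each gene was read from its brightest probe. The fit was tested on simulated data. The number of arrays limits the precision, as does a single slide. Percentile centring hides any change shared by most transcripts. No pairing by replicate number was seen, though groups of this size cannot exclude it, and the study's methods name no covariate. No block was used.

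The members and lists were chosen with earlier results of these data known. By rule, the text names called Hox genes, genes whose probes differ in call, the genes upstream of those called with cordycepin, the 2 most precise uncalled genes per cluster and up to 4 called members of each list. Other named probes were chosen after their values were seen. Alternatives were another background correction, quantile and spike-in scaling, other filters, blocks, thresholds and probe averages, and leaving out each array. Results of 2 genes, 1 of them a member counted in the totals, are not reported here.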

Additional observations from a re-analysis of the deposited data

How the results depend on the processing

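The count of 1 Hox gene higher with cordycepin against serum became 0 with the normexp background correction and with probes well above background on all 8 arrays, which removes Hoxd1 by its construction. It became 2 with the array row as a block, with centring on spike-in probes, with only the groups compared, with the mean of a gene's probes and with the unadjusted p, and 4 with no minimum fold change. Against no serum the count of 1 higher became 0 under the same correction and that stricter filter and 2 with the row block, the mean of probes, no minimum fold and the unadjusted p, and the count of 1 lower became 0 with normexp and 3 with no minimum fold. For serum against no serum the count of 0 lower became 1 with no minimum fold. Where no construction is named, the cause was not tested. The median Hox change moved to -0.54 (serum) and -0.38 (cordycepin plus serum against no serum) with spike-in centring, where the median of all probes was -0.39 and -0.31, and to -0.0051 and 0.16 with normexp. Leaving out 1 array at a time gave 1 to 2 higher and 0 lower with cordycepin against serum, 0 in both directions with serum, and 1 to 2 higher and 1 lower against no serum. The medians then ran from 0.08 to 0.18, from -0.22 to -0.07 and from -0.04 to 0.07. Hoxd1 and LOC102634401 were called in all 8 of these fits with cordycepin against serum. Same-numbered arrays of different groups correlated from -0.17 to 0.23 in their deviations from the group means. No pairing was seen, but groups of 2 and 3 arrays cannot exclude it. The replicate block gave 1 higher and 0 lower with cordycepin against serum, 0 and 0 with serum, and 1 and 1 against no serum. Among single named probes it called ENSMUST00000142764 with cordycepin against serum (1.20, adjusted p = 0.0072). Over all named probes and genes 1633 values under an alternative kept their call or lack of one, 78 lost a call and 26 gained one. None changed direction where either fit made a call, and changes of direction between uncalled values were not counted. Hoxa2 with cordycepin against serum, never called, ran from -0.18 to 0.09 when 1 array was left out. Over all probes the 2356 higher and 886 lower with cordycepin became 919 and 402 with normexp, and 1949 and 1285 with quantile normalisation. Signal near background gives bounds only.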
